A study of Homo sapiens with 22 samples.

Results

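RNA polymerase II, the general transcription factors and the Mediator complex form the machinery that starts transcription of protein-coding genes. Their subunits were described here across 22 RNA-seq libraries of MDA-MB-231 cells. This established line comes from a human breast cancer of triple-negative type and looks mesenchymal. Members were taken by symbol among protein-coding genes: the polymerase subunits POLR2A to POLR2L, the TFIIA, TFIIB, TFIIE, TFIIF and TFIIH genes (GTF2 symbols with ERCC2, ERCC3, CDK7, CCNH and MNAT1), TBP and the numbered TAF genes of TFIID, and the numbered MED genes with CDK8 and CCNC. The rule used no measured value. It found 78 of the 60669 genes in each of the knockdown and DMSO tables, and 76 of 14954 genes in the CTRL table, where GTF2A1L and GTF2H4 were not listed.

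At a promoter, TFIID binds first, through TBP and its associated TAF proteins, and TFIIA and TFIIB then recruit the polymerase with TFIIF. TFIIE brings in TFIIH, whose helicases open the DNA and whose kinase, CDK7 with CCNH and MNAT1, phosphorylates the repeated tail of POLR2A. Mediator is the bridge between activators on enhancers and this assembly. It has a head, a middle and a tail on a MED14 scaffold, and a detachable kinase module of CDK8, CCNC, MED12 and MED13. BET inhibitors are compounds that displace bromodomain proteins from acetylated histones.

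The series sets BET inhibition beside METTL3, the catalytic subunit of the m6A writer, which methylates adenosines in RNA. There were 11 groups of 2 libraries, in 3 tables, all from cells in DMEM with 10% FBS. Lentivirus, a compound or both were used in the series, and the labels do not say whether CTRL or B5 cells received either. The knockdown table held shM3 cells with METTL3-WT added back (shM3_WT), shM3 cells with METTL3-CD added back (shM3_CD), shM3 cells and B5 cells, with all 4 groups held in culture for 2 to 3 months. In the DMSO table were cells given I-BET151, Molib or JQ1 at 0.5 µM, or DMSO, for 3 days. The CTRL table held cells labelled MW_JQ1 with 0.5 µM JQ1, cells with 0.5 µM JQ1 alone and CTRL cells, also for 3 days. The labels do not say what B5, CD or MW stand for, or whether a line is a clone. Nor do they say that replicate libraries stem from different cultures. The p-values therefore measure only how far these libraries differ, which may be technical. The JQ1 columns of the DMSO table were taken as the JQ1 samples not in the CTRL table by elimination. They carry no replicate number and are given here as libraries a and b.

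Values are FPKM, in which fragment numbers are divided by the length of the gene and by the library total, and read depth is unknown. Differences were tested with limma on log2(FPKM + 1) within a table, over all genes that reached 1 FPKM in 2 or more libraries, and a gene was called at a Benjamini-Hochberg adjusted p under 0.05. Fold changes are ratios of mean FPKM, while the log2 differences, with their standard errors, are on the log2(FPKM + 1) scale, which understates changes of low genes. In B5 replicate 2 PIDD1 was listed at 8234197 FPKM, while the other genes of that library summed to 423171 and those of B5 replicate 1 without its top gene to 434383. METTL3 was at 312 and 311 FPKM in shM3_WT, 277 and 270.5 in shM3_CD and 4.39 and 4.80 in shM3, against 20.1 and 23.8 in B5 libraries. The MDA-MB-231 markers VIM, CD44, CAV1, KRT18 and EGFR were above 17 FPKM in every library. Of 6 luminal markers, ESR1 and PGR were under 0.1 FPKM in the knockdown and DMSO tables, and CDH1 at or under 0.416. The other luminal markers were present. KRT8 was at 280.6 to 459.9 FPKM in the knockdown table and 199.7 to 500.9 in the DMSO table. EPCAM was at 5.22 to 10.9 and 1.08 to 6.02 FPKM, and GATA3 at 4.04 to 7.46 and 1.52 to 4.26. HEXIM1, which is known to rise under BET inhibition, was at 73.8 and 76.7 FPKM with JQ1 and 72.9 and 69.6 with Molib, against 26.5 and 29.4 with DMSO. In the libraries labelled I-BET151 it was lower instead, at 10.3 and 6.37 FPKM (log2 difference -1.66 ± 0.19 SE, adjusted p = 0.00113). This gene was chosen after its values were seen, and the group is named below only by its label.

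Nearly all members were expressed in B5 and DMSO cells, with POLR2L highest. In B5 cells the mean FPKM of the 78 members ran from 0 for GTF2A1L, a germ-cell form of TFIIA, to 206.3 for POLR2L, a small subunit shared by all nuclear polymerases, with a median of 16.8. In DMSO cells the range was 0 to 189.9 FPKM with a median of 16.8, again between GTF2A1L and POLR2L. Between 5 and 50 FPKM lay 65 members in B5 cells and 62 in DMSO cells. GTF2A1L and MED12L, a paralog of MED12, failed the filter on low values in the knockdown and DMSO tables, so 76 members were tested there. MED12L failed it in the CTRL table too, where 75 were tested.

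Promoters are shown for the 4 members whose levels changed most often in the sections below and whose start sites lie in the sequence table used: POLR2A (ENSG00000181222, chr17:7484366-7514616 in hg38), TAF12 (ENSG00000120656, chr1:28589323-28643085), TAF13 (ENSG00000197780, chr1:109062486-109076002) and MED24 (ENSG00000008838, chr17:40019097-40061215). Each runs 5′ to 3′ from 250 bases before the RefSeq start to 50 bases from it (GRCh38.p14), on the plus strand at chr17:7484116-7484415 for POLR2A and on the minus strand at chr1:28643018-28643317 for TAF12, chr1:109075954-109076253 for TAF13 and chr17:40054359-40054658 for MED24. Capitals mark matches, on either strand, to any of 7 motifs searched by their exact letters. CCGGAAGT is a core site of ETS factors and GGGCGG that of the Sp1 and KLF families. CCAAT is the box bound by the NF-Y complex, and TATAAA is the box bound by TBP itself. CACGTG is an E-box, where factors such as MYC and USF bind. ATGGCGGC is a form of the YY1 site, and TGACGTCA is the palindromic site of CREB and its relatives.
POLR2A: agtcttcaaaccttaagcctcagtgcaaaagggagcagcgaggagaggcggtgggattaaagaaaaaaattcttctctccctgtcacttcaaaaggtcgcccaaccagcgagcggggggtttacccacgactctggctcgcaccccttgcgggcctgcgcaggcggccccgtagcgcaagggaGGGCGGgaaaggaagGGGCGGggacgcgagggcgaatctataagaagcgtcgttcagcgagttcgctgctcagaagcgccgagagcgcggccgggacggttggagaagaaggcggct
TAF12: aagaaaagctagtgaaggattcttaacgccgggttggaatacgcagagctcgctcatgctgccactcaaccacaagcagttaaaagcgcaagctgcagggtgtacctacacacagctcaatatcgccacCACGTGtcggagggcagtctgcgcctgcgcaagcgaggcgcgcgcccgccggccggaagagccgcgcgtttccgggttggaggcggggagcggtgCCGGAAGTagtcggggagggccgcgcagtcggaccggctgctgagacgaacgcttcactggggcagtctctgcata
TAF13: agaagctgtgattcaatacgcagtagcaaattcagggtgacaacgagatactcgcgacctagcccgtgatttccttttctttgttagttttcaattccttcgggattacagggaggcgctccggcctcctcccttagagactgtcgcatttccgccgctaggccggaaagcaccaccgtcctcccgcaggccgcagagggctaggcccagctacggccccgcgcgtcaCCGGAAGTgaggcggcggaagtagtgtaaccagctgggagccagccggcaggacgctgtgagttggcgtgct
MED24: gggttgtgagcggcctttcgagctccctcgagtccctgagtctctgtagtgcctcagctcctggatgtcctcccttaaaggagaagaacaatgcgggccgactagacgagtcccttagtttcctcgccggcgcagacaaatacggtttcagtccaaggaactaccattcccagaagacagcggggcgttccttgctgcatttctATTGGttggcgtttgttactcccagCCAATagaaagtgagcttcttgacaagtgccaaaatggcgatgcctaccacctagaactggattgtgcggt
TAF12 and TAF13 each hold CCGGAAGT, 26 and 22 bases before the start. POLR2A holds GGGCGG at 67 and 52 bases before it, TAF12 also holds CACGTG, and MED24 holds CCAAT once on each strand. The motifs of one promoter do not overlap. RefSeq promoters were matched for 62 of the 78 members. CCGGAAGT was in the promoters of 16 of these 62 genes (25.8%), against 7.12% of 15131 protein-coding genes and 4.95% of all 27305 genes in the table. ATGGCGGC was held by 17.7% of the 62 members against 5.36% of protein-coding genes. TATAAA was held by 4.84% of them (GTF2B, MED7 and MED16) against 12.4%, and GGGCGG by 61.3% against 65.2%. CCAAT was in 27.4% against 42.5%, CACGTG in 12.9% against 11% and TGACGTCA in 3.23% against 3.05%. A match is a match of letters only. GTF2H2 and GTF2H2C, near-identical copies, both count among the 16.

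The first comparison sets METTL3 knockdown, shM3, against B5. In shM3 cells the catalytic subunit POLR2A, the TFIID histone-fold partners TAF11 and TAF13, the helicase ERCC2 and the Mediator tail subunit MED24 were 1.57-fold to 1.87-fold higher, while TAF3, TAF12, MED21 and MED7 were 1.64-fold to 2.70-fold lower. Of 76 members tested, 29 were called, 21 higher and 8 lower. Over all 14638 genes tested 37.8% were called, 17.9% higher and 19.9% lower, so the share of members called in either direction, 38.2%, was near the background, with 27.6% of members called higher. The median log2 difference of the members was 0.19, against -0.00 over all genes. The FPKM of all members summed to 2048 and 2063 in shM3 libraries against 1816 and 1781 in B5 libraries.

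Among polymerase subunits 3 of 12 were called higher and 1 lower. POLR2A, which carries the active site and the repeated tail, was at 64.9 and 67.3 FPKM in shM3 libraries, against 39.6 and 43.7 in B5 libraries. The groups did not overlap, and the difference was 1.59-fold higher (log2 difference 0.66 ± 0.08 SE, adjusted p = 0.00104). POLR2D, a subunit of the detachable stalk, was at 2.47 and 2.97 FPKM against 4.51 and 4.13 (log2 difference -0.52 ± 0.14 SE, adjusted p = 0.0221), with both shM3 libraries lower. POLR2B, the second large subunit, was at 61.3 and 68.9 FPKM in shM3 and 63.2 and 65.0 in B5 libraries, which overlap. POLR2C and POLR2E also passed, at 1.19-fold and 1.28-fold higher, beyond the 24 genes that the naming rule selects.

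TFIID moved in both directions, with 3 of 15 called higher and 3 lower. TAF13 was at 60.6 and 61.4 FPKM in shM3 libraries against 32.4 and 32.7 in B5 libraries, 1.87-fold higher (log2 difference 0.89 ± 0.08 SE, adjusted p = 0.000331). TAF11, which folds together with TAF13, was at 40.4 and 39.3 FPKM against 22.8 and 20.2, 1.85-fold higher (log2 difference 0.86 ± 0.08 SE, adjusted p = 0.000433). For both partners each shM3 library stood above each B5 library. TAF9, a subunit shared with the SAGA coactivator, was 1.32-fold higher (log2 difference 0.39 ± 0.11 SE, adjusted p = 0.0307). TAF3, whose PHD finger reads trimethylated lysine on histone H3, was at 1.49 and 1.76 FPKM in shM3 libraries against 4.07 and 4.70 in B5 libraries, 2.70-fold lower (log2 difference -1.04 ± 0.14 SE, adjusted p = 0.00138). TAF12 was at 1.87 and 1.57 FPKM against 3.56 and 3.38, 2.02-fold lower (log2 difference -0.72 ± 0.13 SE, adjusted p = 0.00588), again without overlap. TAF4, the histone-fold partner of TAF12, was also called, 1.26-fold lower, beyond the naming rule. TBP, the TATA-binding subunit, was at 12.9 and 15.9 FPKM in shM3 and 12.5 and 10.6 in B5 libraries (log2 difference 0.29 ± 0.14 SE, adjusted p = 0.143). TAF1, the largest subunit, was at 10.4 and 11.0 FPKM in shM3 and 10.6 and 15.5 in B5 libraries (log2 difference -0.24 ± 0.16 SE, adjusted p = 0.278). Neither TBP nor TAF1 passed.

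Outside TFIID, no subunit of TFIIA, TFIIB, TFIIE, TFIIF or TFIIH was called lower. GTF2B, which is TFIIB and positions the polymerase, was at 22.0 and 21.3 FPKM in shM3 libraries against 14.5 and 15.4 in B5 libraries, 1.44-fold higher (log2 difference 0.50 ± 0.13 SE, adjusted p = 0.0213). GTF2A1 of TFIIA and GTF2E1 of TFIIE were 1.31-fold higher and 1.49-fold higher. In TFIIH, ERCC2, a helicase that also acts in nucleotide excision repair, was at 49.6 and 49.5 FPKM in shM3 libraries against 30.5 and 24.3 in B5 libraries, 1.81-fold higher (log2 difference 0.84 ± 0.11 SE, adjusted p = 0.00144). GTF2H1, a core scaffold subunit, was at 33.0 and 32.8 FPKM against 23.8 and 22.2 (log2 difference 0.50 ± 0.08 SE, adjusted p = 0.00276). ERCC3, the translocase that melts the promoter, was at 24.8 and 26.5 FPKM in shM3 and 23.6 and 29.1 in B5 libraries (log2 difference -0.03 ± 0.14 SE, adjusted p = 0.891) and did not pass. In the CDK-activating kinase, the cyclin CCNH was 1.29-fold higher (log2 difference 0.35 ± 0.11 SE, adjusted p = 0.0379), while the kinase CDK7 (log2 difference 0.32 ± 0.16 SE, adjusted p = 0.159) and the assembly factor MNAT1 (log2 difference 0.24 ± 0.37 SE, adjusted p = 0.634) did not pass.

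In Mediator the called subunits of the head (MED8, MED11, MED17) and of the tail (MED15, MED24, MED25, MED27) were all higher in shM3 cells, 3 of 11 and 4 of 7 tested. MED24, a tail subunit, was at 45.6 and 49.5 FPKM in shM3 libraries against 31.3 and 29.4 in B5 libraries, 1.57-fold higher (log2 difference 0.63 ± 0.09 SE, adjusted p = 0.00161). MED17, the central scaffold of the head, was at 39.2 and 32.0 FPKM against 26.3 and 22.1 (log2 difference 0.54 ± 0.13 SE, adjusted p = 0.0146). Every shM3 library of these genes lay above both B5 libraries. MED8, MED11, MED25 and MED27 were 1.32-fold to 1.39-fold higher, and MED15 passed beyond the naming rule at 1.23-fold higher. In the middle, 1 subunit was called higher and 3 lower. MED10 was at 50.2 and 47.3 FPKM in shM3 against 32.1 and 33.4 in B5 libraries (log2 difference 0.56 ± 0.08 SE, adjusted p = 0.00219). MED21 and MED7 pair as a hinge of the middle. MED21 was at 2.63 and 2.89 FPKM in shM3 against 6.78 and 5.45 in B5 libraries (log2 difference -0.91 ± 0.19 SE, adjusted p = 0.00932), and MED7 at 3.39 and 2.91 against 4.76 and 5.55 (log2 difference -0.57 ± 0.13 SE, adjusted p = 0.0116). MED1, the contact of nuclear receptors, was at 9.65 and 10.3 FPKM against 13.0 and 14.8, 1.40-fold lower (log2 difference -0.44 ± 0.10 SE, adjusted p = 0.0122). In the kinase module, CDK8 was 1.58-fold higher (log2 difference 0.58 ± 0.14 SE, adjusted p = 0.0185) and MED13, which links the module to the core, was 1.40-fold lower (log2 difference -0.44 ± 0.11 SE, adjusted p = 0.0219). The scaffold MED14 (log2 difference -0.00 ± 0.08 SE, adjusted p = 0.983), MED12 (log2 difference 0.08 ± 0.10 SE, adjusted p = 0.548) and CCNC (log2 difference 0.08 ± 0.18 SE, adjusted p = 0.764) did not pass.

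With 1 library left out, between 13 and 18 members were called: 18 and 15 without B5 replicate 1 or 2, and 13 and 15 without shM3 replicate 1 or 2. The number of all genes called fell in each of these runs as well, so the fall is not read as particular to the members. GTF2B, GTF2A1, MED8 and TAF9 lost their calls in each of them. Of the members named by the rule, POLR2A, TAF3, TAF11, TAF12, TAF13, ERCC2, GTF2H1, MED10 and MED24 kept theirs in every alternative run. Marker lists moved with this comparison. The 5 MDA-MB-231 markers summed to 994 to 1008 FPKM in shM3 and 1459 to 1569.6 FPKM in B5 libraries. The summed level of haematopoietic markers was 11.6 to 13.4 FPKM in shM3 and 42.0 to 53.2 FPKM in B5 libraries, carried by LAPTM5 and CD14, while PTPRC, CD3E and CD79A were at or under 0.304 FPKM in every library. The part of these markers in the result was not tested. In bulk RNA, fewer cells of a kind and less RNA per cell cannot be told apart.

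**Figure D1:**
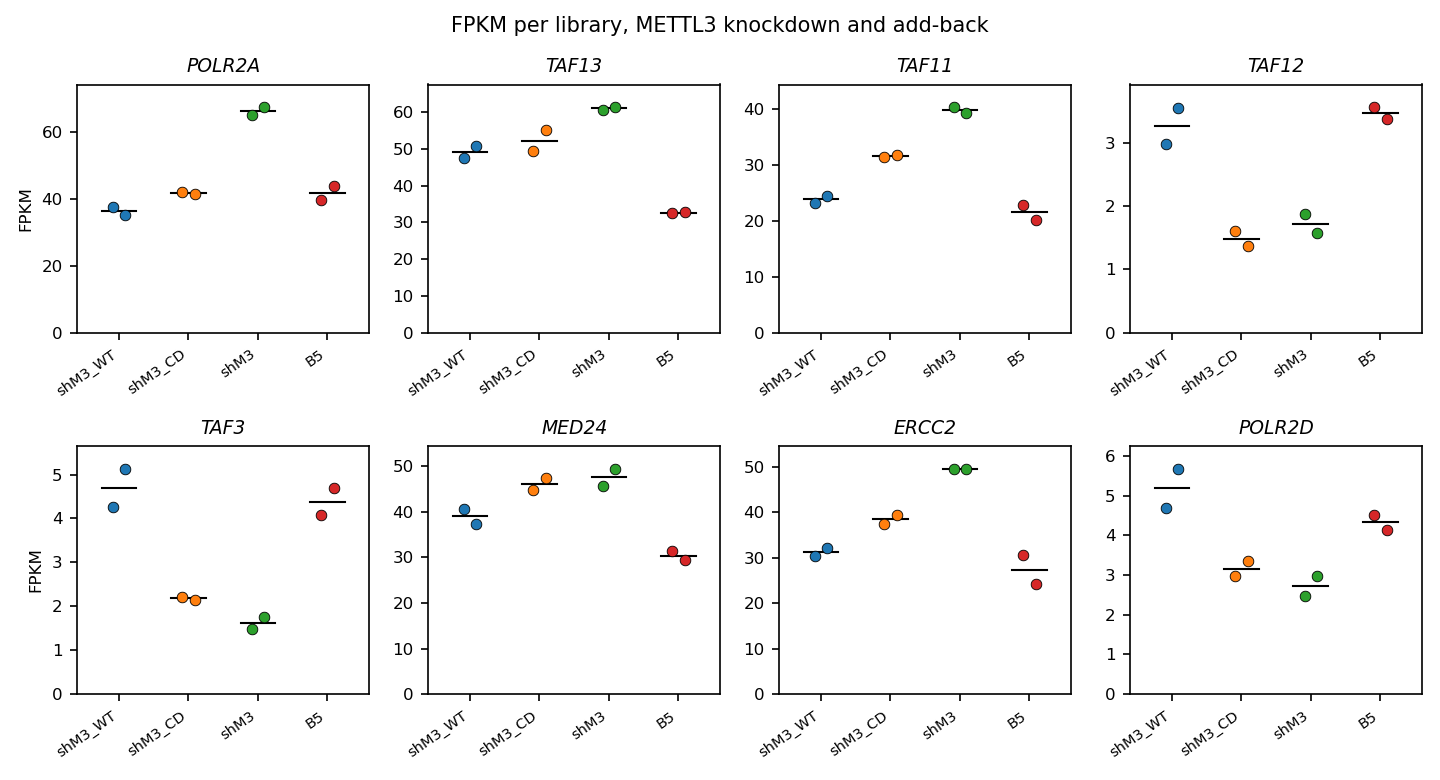
FPKM of 8 members in each library of the knockdown table (vertical axes, starting at 0), by group (horizontal axes), with points for single libraries and lines for group means of 2 libraries. POLR2A stands at 64.9 and 67.3 FPKM in shM3 libraries and under 44 FPKM in all the others, while TAF12 is low in shM3_CD and shM3 libraries and TAF13 is above B5 in the other 3 groups.

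Adding back METTL3-WT gave 29 of 76 members called against shM3, 11 higher and 18 lower, beside 39.4% of all genes (16.7% higher, 22.7% lower). Under other scalings the split was 12 higher and 12 lower, with TMM factors and with equal medians alike. Of all 14638 genes, 5587 were called with TMM factors, 2850 of them higher, and 5576 with equal medians, 2886 of them higher. The main fit called 5772, 2451 of them higher, so the split of all genes shifted too. TAF8, TAF13, MED12, MED16, MED17 and MED24, given as lower below, did not pass under either scaling. The median log2 difference was -0.10 for the members and -0.08 for all genes. POLR2A was at 37.6 and 35.1 FPKM in shM3_WT libraries, against 64.9 and 67.3 in shM3 libraries, 1.82-fold lower (log2 difference -0.85 ± 0.08 SE, adjusted p = 0.000338). TAF11 was at 23.3 and 24.4 FPKM against 40.4 and 39.3 (log2 difference -0.72 ± 0.08 SE, adjusted p = 0.000833). Both shM3_WT libraries of each gene lay below both shM3 libraries. TAF3 was at 4.25 and 5.14 FPKM in shM3_WT against 1.49 and 1.76 in shM3 libraries, 2.89-fold higher (log2 difference 1.11 ± 0.14 SE, adjusted p = 0.000931), and TAF12 was 1.90-fold higher (log2 difference 0.65 ± 0.13 SE, adjusted p = 0.00838). TAF9 (1.49-fold lower) and TAF13 (1.24-fold lower) were lower too, as was TAF8, beyond the naming rule (1.43-fold lower).

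Several general factors were lower with METTL3-WT. GTF2B was at 10.8 and 14.4 FPKM in shM3_WT libraries against 22.0 and 21.3 in shM3 libraries, 1.72-fold lower (log2 difference -0.75 ± 0.13 SE, adjusted p = 0.00418). ERCC2 was at 30.4 and 32.1 FPKM against 49.6 and 49.5 (log2 difference -0.65 ± 0.11 SE, adjusted p = 0.00396), and GTF2H1 at 20.3 and 21.5 against 33.0 and 32.8 (log2 difference -0.63 ± 0.08 SE, adjusted p = 0.000939). None of these groups overlapped. GTF2A2, the small subunit of TFIIA, was higher, at 37.8 and 37.5 FPKM against 23.3 and 23.6 (log2 difference 0.66 ± 0.10 SE, adjusted p = 0.00205). GTF2H2 was 1.52-fold higher (log2 difference 0.56 ± 0.14 SE, adjusted p = 0.0186), a value left uncertain by its copy GTF2H2C, since reads of near-identical copies may be split between them. TBP, TAF1, ERCC3, CDK7, CCNH and MNAT1 did not pass, with log2 differences of -0.19, -0.31, -0.07, -0.30, -0.27 and -0.32.

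Of 7 Mediator tail and scaffold subunits, 5 were lower and 0 higher in shM3_WT against shM3, beside 22.7% and 16.7% of all genes. MED23, a tail subunit that activators of the ELK1 kind contact, was at 4.85 and 4.55 FPKM in shM3_WT libraries against 8.08 and 7.69 in shM3 libraries, 1.68-fold lower (log2 difference -0.64 ± 0.11 SE, adjusted p = 0.00338). MED25 was at 19.5 and 18.5 FPKM against 33.5 and 28.8 (log2 difference -0.68 ± 0.11 SE, adjusted p = 0.00361), and the scaffold MED14 at 19.8 and 18.3 against 26.1 and 28.3 (log2 difference -0.49 ± 0.08 SE, adjusted p = 0.00418). MED24 and MED16 were the other 2, beyond the naming rule, at 1.22-fold lower and 1.31-fold lower. Neither of them passed with TMM factors or equal medians. In the kinase module CDK8 (log2 difference -0.57 ± 0.14 SE, adjusted p = 0.0185), MED12 (log2 difference -0.36 ± 0.10 SE, adjusted p = 0.023) and MED13L, a paralog of MED13 (log2 difference -0.62 ± 0.13 SE, adjusted p = 0.00816), were lower, while CCNC (log2 difference -0.15 ± 0.18 SE, adjusted p = 0.548) and MED13 (log2 difference -0.21 ± 0.11 SE, adjusted p = 0.181) did not pass. MED21 was at 8.99 and 6.48 FPKM in shM3_WT against 2.63 and 2.89 in shM3 libraries, 2.80-fold higher (adjusted p = 0.00292), and MED7 was 1.61-fold higher (log2 difference 0.55 ± 0.13 SE, adjusted p = 0.0126), while MED31 of the middle was 1.72-fold lower. In the head MED19 and MED22 were 1.27-fold higher and 1.35-fold higher, and MED17 passed beyond the rule at 1.37-fold lower. In the polymerase, POLR2C was at 48.1 and 46.9 FPKM against 33.1 and 34.8 (log2 difference 0.47 ± 0.07 SE, adjusted p = 0.00277) and POLR2D at 4.69 and 5.68 against 2.47 and 2.97 (log2 difference 0.73 ± 0.14 SE, adjusted p = 0.00549), both higher, and POLR2K passed beyond the rule at 1.28-fold higher. POLR2B (log2 difference 0.02 ± 0.08 SE, adjusted p = 0.862) and MED1 (log2 difference 0.11 ± 0.10 SE, adjusted p = 0.434) did not pass. Without 1 library, 19 (shM3 replicate 1), 21 (shM3 replicate 2), 24 (shM3_WT replicate 1) or 18 (shM3_WT replicate 2) members were called.

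Adding back METTL3-CD gave 5 of 76 members called against shM3, beside 11.4% of all genes (6.82% higher, 4.59% lower). POLR2A was again lower, at 41.9 and 41.5 FPKM in shM3_CD libraries against 64.9 and 67.3 in shM3 libraries, 1.59-fold lower (log2 difference -0.65 ± 0.08 SE, adjusted p = 0.00415). GTF2H1 (log2 difference -0.35 ± 0.08 SE, adjusted p = 0.0312) and MED10 (log2 difference -0.33 ± 0.08 SE, adjusted p = 0.0474) were lower too. MED7 was at 5.82 and 5.44 FPKM against 3.39 and 2.91 (log2 difference 0.68 ± 0.13 SE, adjusted p = 0.0177), and POLR2H, a subunit shared by the nuclear polymerases, at 42.6 and 41.5 against 25.9 and 32.1 (log2 difference 0.53 ± 0.11 SE, adjusted p = 0.0235), both higher. TAF3 was at 2.21 and 2.15 FPKM in shM3_CD libraries (log2 difference 0.28 ± 0.14 SE, adjusted p = 0.232) and TAF12 at 1.60 and 1.37 (log2 difference -0.13 ± 0.13 SE, adjusted p = 0.581), and neither passed. The count was 1 or 2 with any of the 4 libraries left out (1 without shM3 replicate 1 or shM3_CD replicate 1, 2 without shM3 replicate 2 or shM3_CD replicate 2), and POLR2A was called in each. POLR2B, TBP, TAF1, GTF2B, ERCC2, ERCC3, CDK7, CCNH, MNAT1, MED1, MED12, MED13, MED14, CDK8 and CCNC did not pass, with adjusted p between 0.0704 for CCNH and 0.991 for MED1.

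The add-backs differed from each other in 18 of 76 members, 11 higher and 7 lower in shM3_WT against shM3_CD, beside 25.9% of all genes (10.2% higher, 15.7% lower). With TMM factors the split was 13 higher and 3 lower, and with equal medians 13 and 2. Of all 14638 genes, 3518 were called with TMM factors, 1864 of them higher, and 3515 with equal medians, 2014 of them higher. The main fit called 3785, 1494 of them higher, so the split of all genes shifted too. TAF12 was at 2.99 and 3.55 FPKM in shM3_WT libraries against 1.60 and 1.37 in shM3_CD libraries, 2.21-fold higher (log2 difference 0.78 ± 0.13 SE, adjusted p = 0.00721). TAF3 was at 4.25 and 5.14 FPKM against 2.21 and 2.15, 2.15-fold higher (log2 difference 0.84 ± 0.14 SE, adjusted p = 0.00586), and GTF2A2 at 37.8 and 37.5 against 21.3 and 23.6 (log2 difference 0.73 ± 0.10 SE, adjusted p = 0.00296). The shM3_WT libraries were the higher ones in all of these, without overlap. MED25 was lower, at 19.5 and 18.5 FPKM against 36.7 and 30.5 (log2 difference -0.78 ± 0.11 SE, adjusted p = 0.00406), as was MED23, at 4.85 and 4.55 against 7.38 and 8.37 (log2 difference -0.64 ± 0.11 SE, adjusted p = 0.00627). The other higher members were POLR2C, POLR2D, GTF2H2, MED10, MED19, MED21, MED22 and MED27, and the other lower ones TAF11, GTF2B, GTF2H1, MED11 and POLR2H, with log2 differences between -0.44 for GTF2B and 0.96 for MED21. GTF2B, GTF2H1, MED11 and POLR2H did not pass with TMM factors or with equal medians, and TAF11 did not pass with equal medians. POLR2A was at 37.6 and 35.1 FPKM in shM3_WT and 41.9 and 41.5 in shM3_CD libraries (log2 difference -0.19 ± 0.08 SE, adjusted p = 0.12) and did not pass. With any 1 library left out 7 or 8 members were called, 7 without shM3_CD replicate 1 and 8 without shM3_CD replicate 2 or either shM3_WT library.

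Both add-backs differed from B5 in part of the machinery. Against B5, 14 of 76 members were higher and 6 lower in shM3_WT, beside 11.8% and 18.2% of all genes. In shM3_CD 11 were higher and 6 lower, beside 14.8% and 15.2%. For shM3_WT the split was 17 and 4 with TMM factors and 20 and 4 with equal medians. Of all 14638 genes, 4490 were called with TMM factors, 2327 of them higher, and 4626 with equal medians, 2613 of them higher. The main fit called 4386, 1727 of them higher, so the split of all genes shifted too. POLR2C was highest in shM3_WT, at 48.1 and 46.9 FPKM against 27.7 and 29.3 in B5 (log2 difference 0.72 ± 0.07 SE, adjusted p = 0.000853). MED23 (log2 difference -0.75 ± 0.11 SE, adjusted p = 0.00268), MED13L (log2 difference -0.86 ± 0.13 SE, adjusted p = 0.00314), MED14 (log2 difference -0.49 ± 0.08 SE, adjusted p = 0.00584) and MED13 (log2 difference -0.65 ± 0.11 SE, adjusted p = 0.00634) were lower in shM3_WT than in B5. TAF13 was above B5 in both add-backs, at 47.4 and 50.8 FPKM in shM3_WT (log2 difference 0.58 ± 0.08 SE, adjusted p = 0.00273) and 49.4 and 55.2 in shM3_CD (log2 difference 0.66 ± 0.08 SE, adjusted p = 0.00165), against 32.4 and 32.7 in B5. TAF12 and TAF3 were lower in shM3_CD than in B5, 2.34-fold lower (log2 difference -0.85 ± 0.13 SE, adjusted p = 0.00427) and 2.01-fold lower (log2 difference -0.76 ± 0.14 SE, adjusted p = 0.00682). By the naming rule MED10 and MED22 were also called higher in shM3_WT than in B5. In shM3_CD the rule also named MED24, POLR2H, TAF11 and MED11, called higher, and MED13, called lower. POLR2A did not pass in shM3_WT (log2 difference -0.19 ± 0.08 SE, adjusted p = 0.114) or in shM3_CD (log2 difference 0.00 ± 0.08 SE, adjusted p = 0.984) against B5. TAF1 was called lower in shM3_WT, MED1 was called lower in both add-backs and ERCC2 was called higher in shM3_CD. POLR2B, TBP, GTF2B, ERCC3, CDK7, CCNH, MNAT1, MED12, CDK8 and CCNC were called in neither add-back against B5. Left-out libraries lowered the count to 13 without B5 replicate 2 and 12 without either shM3_WT library, and for shM3_CD to 9 or 10 without shM3_CD replicate 1 or 2. These comparisons share libraries with those above. RNA fraction markers, which are small RNAs without a poly(A) tail and the long RNAs MALAT1 and NEAT1, also differed in the table. The summed RNA fraction markers, with RN7SL1 first, were 91.1 to 130.2 FPKM in shM3_WT, 136.4 to 197.9 in shM3_CD, 369.0 to 423.9 in shM3 and 314.5 to 335.8 in B5 libraries, and haematopoietic markers 36.5 to 37.3 FPKM in shM3_WT and 23.2 to 23.5 in shM3_CD. MDA-MB-231 markers summed to 1543 to 1665 FPKM in shM3_WT and 844 to 976 in shM3_CD libraries, beside the shM3 and B5 values above. The part of these lists in the comparisons of the add-backs with shM3, with each other and with B5 was not tested.

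**Figure D2:**
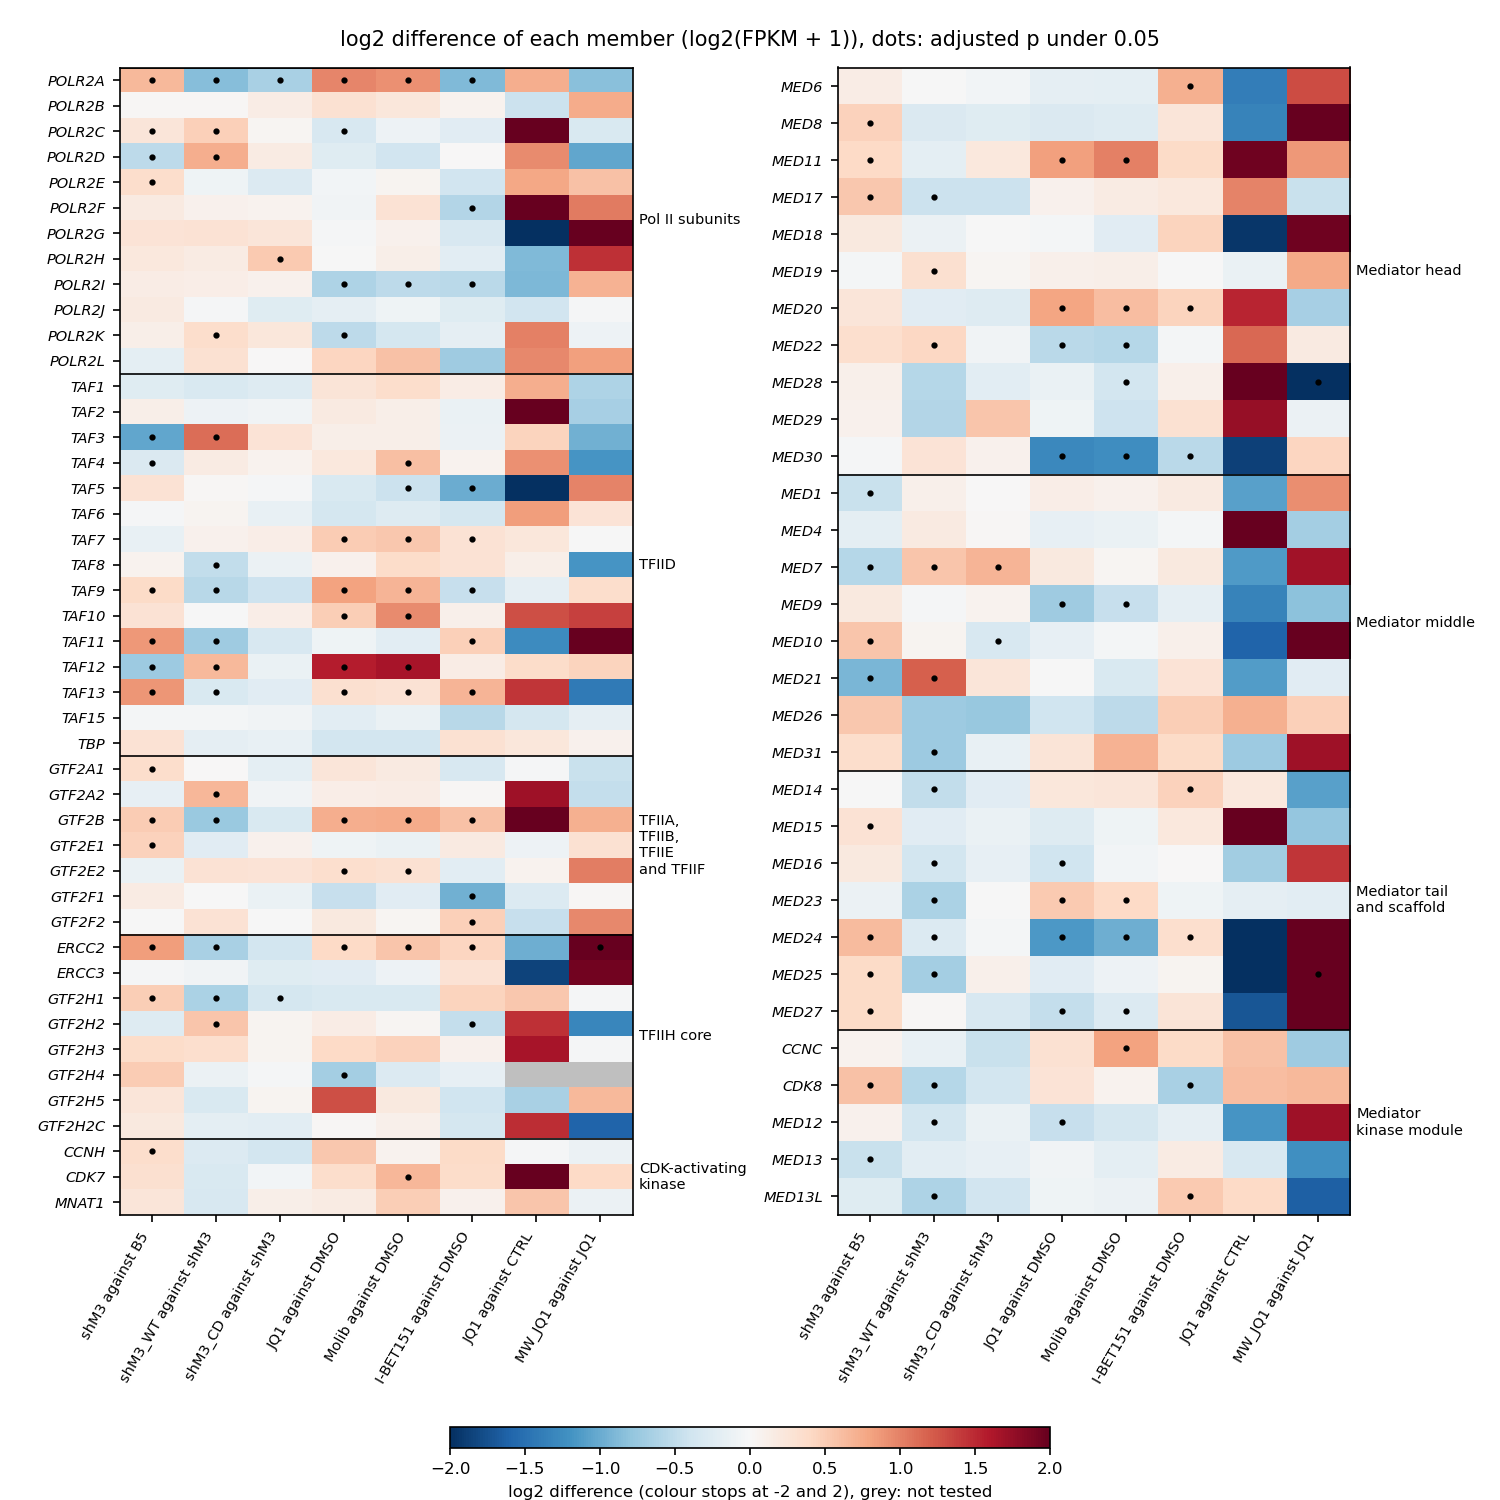
Log2 difference of each of the 76 tested members (rows, by complex) in 8 comparisons (columns), on the log2(FPKM + 1) scale, red for higher and blue for lower in the first-named group, with dots where the adjusted p was under 0.05. POLR2A is dotted in the first 6 columns, TAF12 is deepest red with JQ1 and Molib, and the columns of the CTRL table have strong colours but only 3 dots.

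The next question is how the machinery responded to BET inhibitors over 3 days. With JQ1 and with Molib, POLR2A was 1.98-fold and 1.90-fold higher than with DMSO, TAF12 rose more than 3-fold, and the Mediator subunits MED30 and MED24 fell by more than 2-fold. For JQ1 against DMSO 23 of 76 members were called, 12 higher and 11 lower, beside 35.1% of all 14936 genes tested (14.5% higher, 20.6% lower). For Molib against DMSO 23 were called, 15 higher and 8 lower, beside 35.3% (14.8% higher, 20.5% lower). The median log2 difference was -0.01 for JQ1 and 0.05 for Molib over the members, against -0.04 and -0.03 over all genes. Both comparisons use the same DMSO libraries, and no correlation or overlap between them is given as a result.

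POLR2A was at 114 and 117 FPKM in JQ1 libraries and 111 and 111 in Molib libraries, against 58.6 and 57.8 in DMSO libraries (log2 difference 0.98 ± 0.09 SE, adjusted p = 0.000328 for JQ1, log2 difference 0.92 ± 0.09 SE, adjusted p = 0.000384 for Molib). Every treated library lay above both DMSO libraries. The other called polymerase genes were lower. POLR2I, a small subunit that acts in start site choice and fidelity, was at 51.0 and 53.1 FPKM with JQ1 and 54.2 and 56.5 with Molib, against 76.6 and 83.6 with DMSO (log2 difference -0.61 ± 0.14 SE, adjusted p = 0.0149, and log2 difference -0.52 ± 0.14 SE, adjusted p = 0.0258). POLR2K, the zinc-binding subunit, and POLR2C, an assembly platform of the core, were lower with JQ1 (log2 difference -0.53 ± 0.13 SE, adjusted p = 0.02 for POLR2K, log2 difference -0.33 ± 0.10 SE, adjusted p = 0.0346 for POLR2C) and did not pass with Molib (log2 differences -0.35 and -0.11). POLR2B did not pass with JQ1 (log2 difference 0.31 ± 0.11 SE, adjusted p = 0.0682) or Molib (log2 difference 0.22 ± 0.11 SE, adjusted p = 0.162).

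TFIID was the complex with the most higher calls, 5 of 15 with JQ1 and 6 of 15 with Molib, and 0 and 1 lower. TAF12 was at 24.9 and 25.3 FPKM with JQ1 and 26.3 and 27.1 with Molib, against 7.81 and 7.80 with DMSO. That is 3.21-fold higher with JQ1 (log2 difference 1.57 ± 0.14 SE, adjusted p = 0.000332) and 3.42-fold higher with Molib (log2 difference 1.65 ± 0.14 SE, adjusted p = 0.000262). TAF9 was at 37.6 and 35.7 FPKM with JQ1 and 34.5 and 32.3 with Molib, against 19.5 and 21.5 with DMSO (log2 difference 0.81 ± 0.10 SE, adjusted p = 0.00121 for JQ1, log2 difference 0.68 ± 0.10 SE, adjusted p = 0.00228 for Molib). TAF10, which like TAF9 and TAF12 is shared with SAGA, was at 21.8 and 23.0 FPKM with JQ1 and 32.0 and 30.2 with Molib, against 14.5 and 16.7 (log2 difference 0.50 ± 0.12 SE, adjusted p = 0.019 for JQ1, log2 difference 0.95 ± 0.12 SE, adjusted p = 0.00135 for Molib). These treated libraries did not overlap DMSO. TAF7, which binds TAF1 and checks its activity, was 1.43-fold higher with JQ1 (log2 difference 0.50 ± 0.09 SE, adjusted p = 0.00456) and 1.46-fold higher with Molib (log2 difference 0.54 ± 0.09 SE, adjusted p = 0.00333), and TAF13 was 1.26-fold higher with JQ1 and 1.23-fold higher with Molib. TAF4 (log2 difference 0.59 ± 0.10 SE, adjusted p = 0.00399) was higher and TAF5 (log2 difference -0.42 ± 0.14 SE, adjusted p = 0.0469) lower with Molib. TBP (log2 difference -0.37 with JQ1 and -0.36 with Molib) and TAF1 (0.26 and 0.36) did not pass. TAF9 and TAF10 share 20.6% and 38.9% of their exonic bases with AK6 and ILK in the GENCODE annotation. Over 20% is shared with another gene by 12 of the 78 members. Among them are POLR2I (61.9%), MED31 (58.3%), MED28 (32.1%), MED11 (31.1%) and POLR2L (22.5%). The use of strand in counting is not given in the sources used here.

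Among the other general factors the calls with JQ1 and Molib were higher except GTF2H4. GTF2B was at 20.1 and 18.1 FPKM with JQ1 and 18.2 and 20.7 with Molib, against 11.3 and 11.1 with DMSO (log2 difference 0.72 ± 0.15 SE, adjusted p = 0.009 for JQ1, log2 difference 0.74 ± 0.15 SE, adjusted p = 0.00784 for Molib). GTF2E2, a subunit of TFIIE, was 1.27-fold higher with JQ1 and 1.25-fold higher with Molib. ERCC2 was at 36.4 and 39.5 FPKM with JQ1 and 43.3 and 41.1 with Molib, against 29.3 and 27.8 with DMSO (log2 difference 0.40 ± 0.10 SE, adjusted p = 0.0212 for JQ1, log2 difference 0.55 ± 0.10 SE, adjusted p = 0.00608 for Molib). Both DMSO libraries were the lowest for these 3 genes. GTF2H4, which shares 79.0% of its exonic bases with VARS2, was 1.63-fold lower with JQ1 (log2 difference -0.68 ± 0.20 SE, adjusted p = 0.0352). ERCC3 did not pass (log2 difference -0.23 with JQ1 and -0.11 with Molib). CDK7 was at 31.3 and 30.6 FPKM with Molib against 20.4 and 18.0 with DMSO (log2 difference 0.67 ± 0.13 SE, adjusted p = 0.00746), and at 22.0 and 27.7 with JQ1 (log2 difference 0.35 ± 0.13 SE, adjusted p = 0.0741), which did not pass. CCNH (log2 difference 0.53 with JQ1 and 0.07 with Molib) and MNAT1 (0.16 and 0.50) did not pass.

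Mediator changed in both directions. MED30, a head subunit found in metazoans, was at 10.6 and 10.6 FPKM with JQ1 and 10.5 and 11.4 with Molib, against 25.9 and 28.7 with DMSO (2.57-fold lower, log2 difference -1.28 ± 0.11 SE, adjusted p = 0.000324 for JQ1, and 2.49-fold lower, log2 difference -1.24 ± 0.11 SE, adjusted p = 0.000345 for Molib). MED24 was at 21.3 and 22.6 FPKM with JQ1 and 25.2 and 24.1 with Molib, against 47.4 and 52.0 with DMSO (2.26-fold lower, log2 difference -1.14 ± 0.09 SE, adjusted p = 0.000241 for JQ1, and 2.01-fold lower, log2 difference -0.98 ± 0.09 SE, adjusted p = 0.000401 for Molib). All treated libraries of both genes were below both DMSO libraries. The head subunits MED11 and MED20 were higher. MED11 was at 30.4 and 32.2 FPKM with JQ1 and 33.6 and 38.1 with Molib, against 16.0 and 18.7 (log2 difference 0.82 ± 0.15 SE, adjusted p = 0.00575 for JQ1, log2 difference 1.01 ± 0.15 SE, adjusted p = 0.00234 for Molib). MED20 was at 18.7 and 17.7 FPKM with JQ1 and 15.9 and 16.2 with Molib, against 11.0 and 9.28 with DMSO (log2 difference 0.79 ± 0.11 SE, adjusted p = 0.00221 for JQ1, log2 difference 0.62 ± 0.11 SE, adjusted p = 0.00555 for Molib). MED22, the partner of MED11 in the head, was 1.48-fold lower with JQ1 and 1.52-fold lower with Molib. MED9 of the middle was 1.76-fold lower with JQ1 (log2 difference -0.71 ± 0.11 SE, adjusted p = 0.00309) and 1.44-fold lower with Molib (log2 difference -0.46 ± 0.11 SE, adjusted p = 0.0163), and MED27 of the tail 1.41-fold lower and 1.22-fold lower. MED23 was 1.49-fold higher with JQ1 and 1.36-fold higher with Molib. MED16 of the tail was 1.34-fold lower with JQ1, and MED28 of the head 1.37-fold lower with Molib. In the kinase module, MED12 was at 7.03 and 7.61 FPKM with JQ1 against 11.4 and 9.63 with DMSO (log2 difference -0.47 ± 0.13 SE, adjusted p = 0.0261) and the cyclin CCNC at 27.2 and 17.6 with Molib against 12.1 and 12.1 (log2 difference 0.80 ± 0.18 SE, adjusted p = 0.0134), while MED12 with Molib (log2 difference -0.35 ± 0.13 SE, adjusted p = 0.0655) and CCNC with JQ1 (log2 difference 0.31 ± 0.18 SE, adjusted p = 0.232) did not pass. MED1 (log2 difference 0.13 with JQ1 and 0.09 with Molib), MED14 (0.23 and 0.25), MED13 (-0.08 and -0.19) and CDK8 (0.27 and 0.07) did not pass either.

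Leaving out 1 library lowered the JQ1 count to 14 or 12 without DMSO replicate 1 or 2 and to 12 without JQ1 library b, and the Molib count to 14 or 12 without DMSO replicate 1 or 2 and 14 without Molib replicate 2. POLR2A, TAF12, TAF9, TAF7, MED24, MED30, MED11 and MED20 were called with both compounds under every alternative run. With Molib, TAF5 lost its call in each of 9 alternatives, MED28 in 8, MED27 in 7, POLR2I in 6 and GTF2E2, MED23 and TAF13 in 5, while TAF4 kept it in all 9. With JQ1, MED16 and POLR2C lost theirs in 6 of 8, among them TMM factors and equal medians. GTF2H5 stood apart inside the JQ1 group, at 3.88 and 24.2 FPKM in libraries a and b, against 3.55 and 3.58 with DMSO, and did not pass. Marker lists moved too. Luminal markers, nearly all KRT8, summed to 470.2 to 503.9 FPKM with JQ1 and 451.2 to 473.0 with Molib, against 231.8 to 256.5 with DMSO, and haematopoietic markers to 4.52 to 5.55 and 5.91 to 6.50, against 29.8 to 31.8. ESR1, PGR, PTPRC, CD3E and CD79A were at or under 0.225 FPKM in the table. The part of these markers in the results was not tested.

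**Figure D3:**
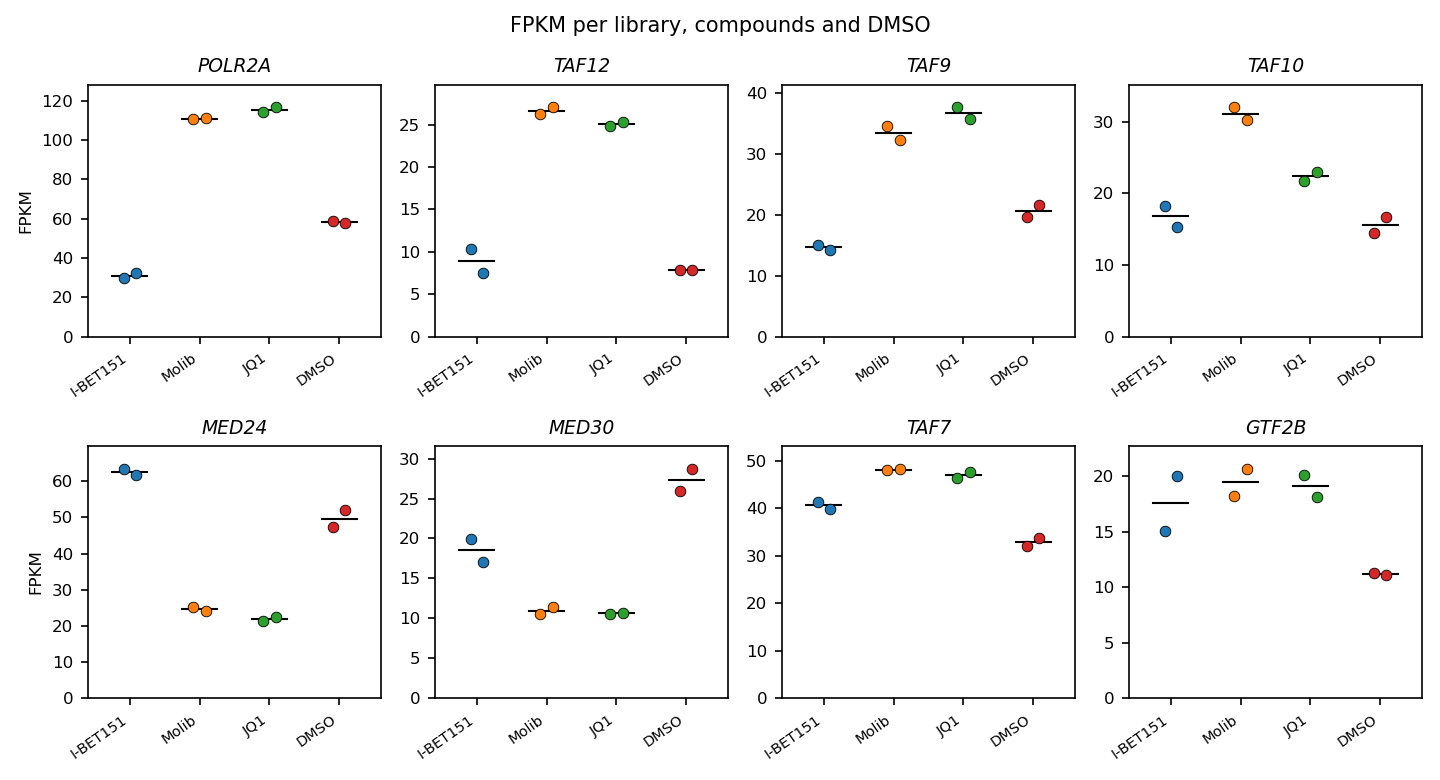
FPKM of 8 members in each library of the DMSO table (vertical axes, starting at 0), by group (horizontal axes), with points for single libraries and lines for group means of 2 libraries. POLR2A is at 111 to 117 FPKM in Molib and JQ1 libraries, near 58 FPKM with DMSO and at 29.6 and 32.4 FPKM in libraries labelled I-BET151, and MED24 has the opposite order.

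In the libraries labelled I-BET151, POLR2A was lower than with DMSO rather than higher, at 29.6 and 32.4 FPKM against 58.6 and 57.8, 1.88-fold lower (log2 difference -0.89 ± 0.09 SE, adjusted p = 0.000722). Of 76 members 20 were called, 11 higher and 9 lower, beside 28.0% of all genes (13.9% higher, 14.1% lower), and the median log2 difference was 0.09 for the members and -0.00 for all genes. In TFIID, TAF5 was at 3.04 and 3.91 FPKM against 7.97 and 7.66 (log2 difference -0.99 ± 0.14 SE, adjusted p = 0.0026) and TAF9 at 15.0 and 14.2 against 19.5 and 21.5 (log2 difference -0.46 ± 0.10 SE, adjusted p = 0.0147), both lower. TAF13 was at 52.0 and 49.5 FPKM against 32.1 and 30.9 with DMSO (log2 difference 0.67 ± 0.09 SE, adjusted p = 0.00237) and TAF11 at 30.7 and 29.8 against 20.5 and 22.2 (log2 difference 0.48 ± 0.09 SE, adjusted p = 0.00991), both higher without overlap. TAF7 was 1.23-fold higher. TAF12, at 10.3 and 7.46 FPKM, did not pass (log2 difference 0.15 ± 0.14 SE, adjusted p = 0.469), nor did TBP (log2 difference 0.31 ± 0.12 SE, adjusted p = 0.0986) or TAF1 (log2 difference 0.15 ± 0.15 SE, adjusted p = 0.484).

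The TFIIF subunits went opposite ways in that group. GTF2F1 was at 51.1 and 30.3 FPKM against 77.8 and 76.9 with DMSO (log2 difference -0.96 ± 0.21 SE, adjusted p = 0.0152), and GTF2F2 at 21.4 and 23.3 against 15.0 and 16.6 (log2 difference 0.48 ± 0.10 SE, adjusted p = 0.014). GTF2B was 1.57-fold higher (log2 difference 0.59 ± 0.15 SE, adjusted p = 0.0237) and ERCC2 1.36-fold higher (log2 difference 0.43 ± 0.10 SE, adjusted p = 0.0204), while GTF2H2, uncertain as above, was 1.43-fold lower. In Mediator, MED6 of the head was at 30.4 and 24.5 FPKM against 14.4 and 18.3 (log2 difference 0.72 ± 0.15 SE, adjusted p = 0.0118), MED14 at 16.1 and 19.4 against 12.8 and 12.3 (log2 difference 0.47 ± 0.14 SE, adjusted p = 0.0412) and MED24 at 63.5 and 61.7 against 47.4 and 52.0 (log2 difference 0.33 ± 0.09 SE, adjusted p = 0.0386), all higher. MED30 was at 19.9 and 17.1 FPKM against 25.9 and 28.7 (log2 difference -0.54 ± 0.11 SE, adjusted p = 0.0136) and CDK8 at 4.26 and 5.42 against 7.87 and 8.41 (log2 difference -0.65 ± 0.14 SE, adjusted p = 0.0141), both lower. MED20 and MED13L were 1.40-fold higher and 1.48-fold higher, and POLR2I and POLR2F 1.44-fold lower and 1.49-fold lower. POLR2B, ERCC3, MED1, MED12, MED13, CCNC, CDK7, CCNH and MNAT1 did not pass, with log2 differences of 0.06, 0.29, 0.19, -0.18, 0.17, 0.38, 0.37, 0.38 and 0.09. Among the members called here only POLR2A, TAF13 and TAF5 kept their calls in every alternative run, while MED24 and MED14 each lost theirs in 5 of 9. The libraries labelled I-BET151 were apart for POLR2L, at 182 and 72.7 FPKM. Without DMSO replicate 1 or 2 only 6 members were called and without I-BET151 replicate 1 or 2 there were 25 and 18. Markers differed between these groups as well. MDA-MB-231 markers summed to 1084 to 1256 FPKM in libraries labelled I-BET151 against 1786 to 1817 with DMSO. The RNA fraction markers summed to 148.3 and 49.95 FPKM in I-BET151 replicates 1 and 2, with RN7SL1 at 131.9 and 37.9, against 112.3 and 171.4 FPKM with DMSO. Their part in these results was not tested.

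Set directly against each other at 0.5 µM and 3 days, the 3 pairs of compounds gave different pictures. I-BET151 against JQ1 had 28 of 76 members called, 16 higher and 12 lower, beside 24.6% of all genes higher and 20.1% lower. With TMM factors or equal medians the members split into 16 higher and 17 lower. Of all genes, 6633 were called with TMM factors, 3391 of them higher, and 6639 with equal medians, 3332 of them higher. The main fit called 6663, 3668 of them higher. I-BET151 against Molib had 35 called, 18 higher and 17 lower, beside 23.6% and 19.9%. POLR2A was 3.72-fold lower in I-BET151 than in JQ1 libraries (log2 difference -1.86 ± 0.09 SE, adjusted p = 1.6e-05) and 3.57-fold lower than in Molib libraries (log2 difference -1.81 ± 0.09 SE, adjusted p = 2.02e-05). TAF9 (log2 difference -1.27 ± 0.10 SE, adjusted p = 0.00011) and TAF12 (log2 difference -1.42 ± 0.14 SE, adjusted p = 0.000307) were lower than with JQ1, and lower than with Molib (log2 difference -1.14 ± 0.10 SE, adjusted p = 0.000177 for TAF9, log2 difference -1.50 ± 0.14 SE, adjusted p = 0.000246 for TAF12). MED24 was 2.85-fold higher than with JQ1 (log2 difference 1.47 ± 0.09 SE, adjusted p = 4.84e-05) and 2.54-fold higher than with Molib (log2 difference 1.31 ± 0.09 SE, adjusted p = 7.43e-05). MED30 (log2 difference 0.74 ± 0.11 SE, adjusted p = 0.00191) and MED6 (log2 difference 0.90 ± 0.15 SE, adjusted p = 0.00241) were also higher than with JQ1, and so against Molib (log2 difference 0.70 ± 0.11 SE, adjusted p = 0.00254 for MED30, log2 difference 0.92 ± 0.15 SE, adjusted p = 0.0023 for MED6). MED27 (log2 difference 0.73 ± 0.09 SE, adjusted p = 0.000625) was higher and CDK8 (log2 difference -0.92 ± 0.14 SE, adjusted p = 0.00184) lower than with JQ1. Against Molib the named genes also included TAF11, higher (log2 difference 0.69 ± 0.09 SE, adjusted p = 0.00121), and TAF10, lower (log2 difference -0.86 ± 0.12 SE, adjusted p = 0.00145). The count against Molib was 23 and 20 without Molib replicate 1 or 2. Markers moved with both pairs. Haematopoietic markers summed to 31.4 to 37.8 FPKM with I-BET151, against 4.52 to 5.55 with JQ1 and 5.91 to 6.50 with Molib. Luminal markers summed to 209.3 to 240.3 FPKM with I-BET151, against 470.2 to 503.9 with JQ1 and 451.2 to 473.0 with Molib. For MDA-MB-231 markers the sums were 1084 to 1256 FPKM with I-BET151, against 1696 to 1935 with JQ1 and 1891 to 1931 with Molib. The part of these lists in the differences was not tested.

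Molib against JQ1 had 0 of 76 members called by limma, and 0 of all 14936 genes. At an unadjusted p under 0.05 there were 5 members and 1227 genes, and TMM factors, equal medians, a pseudocount of 0.1 and no filter also gave 0. The 95% intervals of the log2 difference, unadjusted, were -0.26 to 0.15 for POLR2A, -0.25 to 0.42 for TAF12, -0.06 to 0.38 for MED24 and -0.23 to 0.31 for MED30. For TAF10 the interval was 0.17 to 0.74 (adjusted p = 0.528), with 32.0 and 30.2 FPKM in Molib and 21.8 and 23.0 in JQ1 libraries. The intervals bound these differences and do not show that the compounds act alike. Without JQ1 library a, 1 member was called.

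**Figure D4:**
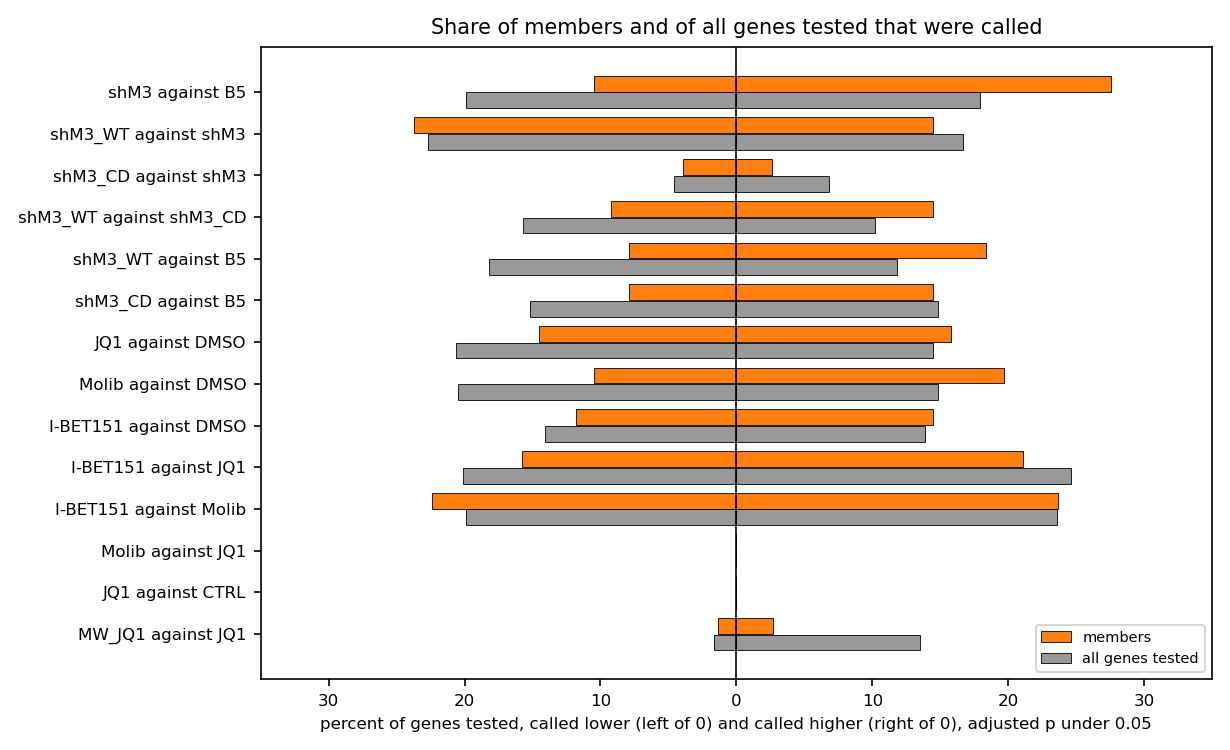
Percent of the members tested (orange) and of all genes tested (grey) called lower (left of 0) and higher (right of 0) at an adjusted p under 0.05, for the 14 comparisons listed down the vertical axis. In shM3 against B5 27.6% of members and 17.9% of all genes are called higher, and in MW_JQ1 against JQ1 2.67% of members and 13.5% of all genes.

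The CTRL table repeats JQ1 in a second experiment and adds MW_JQ1 cells, but its JQ1 and CTRL libraries stood apart. RN7SL1, a small RNA without a poly(A) tail, was at 23.8 and 57.6 FPKM in MW_JQ1, 50061 and 42965 in JQ1 and 37435 and 52947 in CTRL libraries. The protocols in the labels describe both a directional kit and a depletion of ribosomal RNA with poly(A) minus or plus fractions, without saying which samples each served. Genes above 0 numbered 14648 and 14678 in MW_JQ1, 11580 and 9667 in JQ1 and 9653 and 11477 in CTRL libraries. METTL3 was at 212 and 234 FPKM in MW_JQ1, 11.8 and 0 in JQ1 and 31.2 and 1.18 in CTRL libraries. Between the libraries of a group, 1 member differed by over 1 unit of log2(FPKM + 1) in MW_JQ1, 32 in JQ1 and 45 in CTRL, and 6 members each in JQ1 and CTRL were listed at 0 in 1 library and at 5 FPKM or more in the other. An exact 0 there may be a failed estimate. MW_JQ1 and the kind of library cannot be told apart in the comparison with JQ1.

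**Figure D5:**
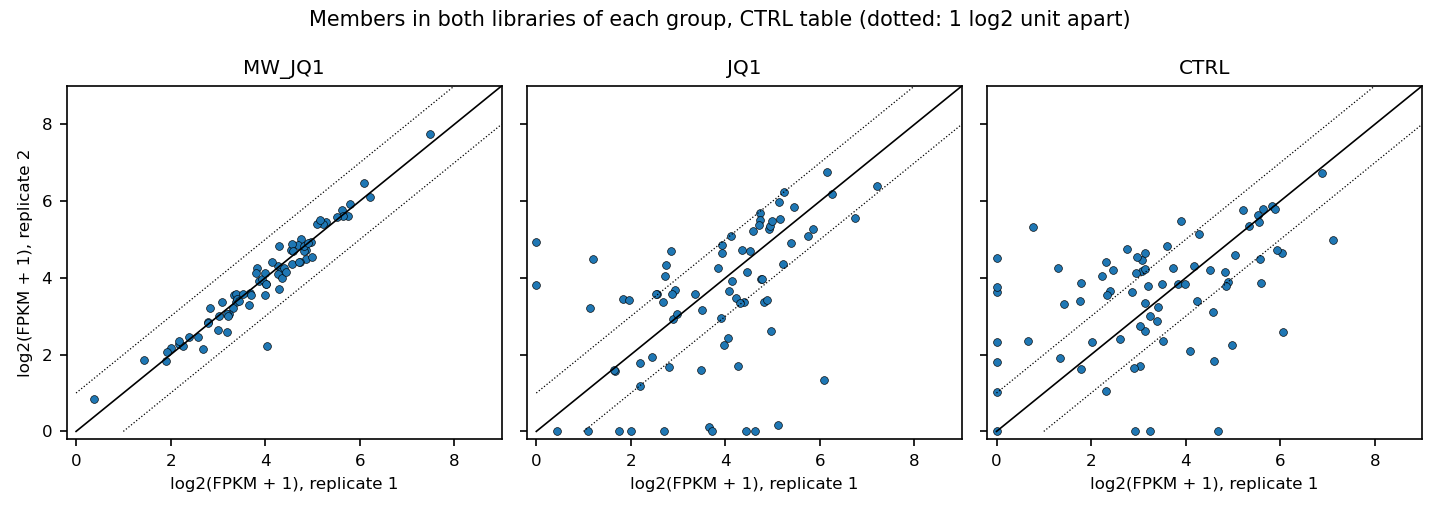
Log2(FPKM + 1) of the 76 members listed in the CTRL table in replicate 1 (horizontal axes) and replicate 2 (vertical axes) of MW_JQ1, JQ1 and CTRL, with a line of equality and dotted lines 1 log2 unit from it. Members of MW_JQ1 lie along the line, while 32 members in JQ1 and 45 in CTRL differ by over 1 log2 unit on this scale.

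For MW_JQ1 against JQ1, 3 of 75 members were called by limma, 2 higher and 1 lower, beside 15.2% of all 13261 genes (13.5% higher, 1.62% lower). The median log2 difference of all genes was 0.75 here and that of the members 0.27, and that shift is not taken out of the values below. MED25 was at 27.4 and 24.9 FPKM in MW_JQ1 libraries against 2.18 and 1.96 in JQ1 libraries (log2 difference 3.14 ± 0.40 SE, adjusted p = 0.00664). ERCC2 was at 34.6 and 44.8 FPKM against 6.89 and 7.36 (log2 difference 2.31 ± 0.37 SE, adjusted p = 0.0167), and MED28, a head subunit, at 2.73 and 2.56 against 19.3 and 25.5 (log2 difference -2.67 ± 0.51 SE, adjusted p = 0.0282). The groups did not overlap for these 3. With equal medians 1725 of all genes were called, 1371 of them higher, against 2010 and 1795 without that scaling. ERCC2 then did not pass and 4 members were called, 1 higher and 3 lower. None was called without MW_JQ1 replicate 1 or 2, and 9 without JQ1 replicate 1. POLR2A was at 37.8 and 42.9 FPKM in MW_JQ1 against 74.8 and 71.3 in JQ1 libraries (log2 difference -0.84 ± 0.27 SE, adjusted p = 0.123) and did not pass. TAF12 was at 8.43 and 7.30 FPKM against 2.92 and 9.78, GTF2B at 25.7 and 20.5 against 15.9 and 11.7, TBP at 9.82 and 9.53 against 10.3 and 7.96, and CDK7 at 28.0 and 25.4 against 14.1 and 28.2. POLR2B was at 73.3 and 67.9 FPKM against 52.9 and 33.3, MED1 at 9.41 and 10.9 against 10.2 and 2.03 and MED14 at 22.7 and 19.7 against 34.2 and 62.3.

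For JQ1 against CTRL, limma called 0 of 75 members and 0 of all genes. At an unadjusted p under 0.05 there were 14 members and 2048 genes. POLR2A was at 74.8 and 71.3 FPKM in JQ1 libraries against 35.9 and 53.2 in CTRL libraries (log2 difference 0.73 ± 0.27 SE, adjusted p = 0.314), both JQ1 libraries above both CTRL libraries. MED30 was at 9.24 and 11.0 FPKM against 39.4 and 39.7 (log2 difference -1.87 ± 0.31 SE, adjusted p = 0.0972), both JQ1 libraries below. MED24 was at 33.5 and 0.118 FPKM against 45.6 and 48.9, and TAF12 at 2.92 and 9.78 against 24.6 and 0. Leaving out CTRL replicate 2 or JQ1 replicate 1 gave calls, among all genes as well as among members.

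The authors' deposited table for these samples holds their own test without naming its groups. It lists 8 of 76 members at an adjusted p under 0.05, 6 above and 2 below 0, beside 20.1% of its 14954 genes. In the authors' deposited table the log2 fold change was 1.06 for POLR2A (adjusted p = 6.22e-07) and 1.54 for POLR2L (adjusted p = 1.61e-18). TAF8, TAF2, MED29 and GTF2H2 were the others above 0 in the authors' deposited table, while MED30 (-1.98, adjusted p = 3.05e-05) and MED25 (-1.91, adjusted p = 0.000434) were below it. Since the table names no direction, these signs are not set beside the differences above.

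Over the 14 comparisons, MED24 and TAF13 were called most often, in 9 each, and POLR2A and TAF12 in 8 each, although many comparisons share libraries. Called in none were 10 of the tested members: POLR2B, POLR2J, TAF2, TAF6, TAF15, MNAT1, GTF2H2C, GTF2H5, MED4 and MED29. Among them POLR2B was at 64.0 and 63.1 FPKM with DMSO, while the libraries of MED29 lay apart, at 16.2 and 5.06 FPKM with DMSO.

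Other genes of the transcription pathway, in lists chosen by role, were read beside the members. Of all genes tested, 17.9% were called higher and 19.9% lower in shM3 against B5, 14.5% and 20.6% with JQ1 against DMSO, 14.8% and 20.5% with Molib and 13.9% and 14.1% with I-BET151. Nothing particular to these lists is read from counts near those shares. Among 12 tested subunits particular to polymerases I and III, shM3 against B5 had 6 called higher and 0 lower, with a median log2 difference of 0.41. POLR1B, the second subunit of polymerase I, averaged 13.3 ± 0.840 FPKM in shM3 and 7.12 ± 0.513 in B5 libraries (SD, n = 2 each, log2 difference 0.82 ± 0.12 SE, adjusted p = 0.00234), and POLR3G of polymerase III was 2.03-fold higher (log2 difference 0.86 ± 0.14 SE, adjusted p = 0.00357). Of 24 pausing and elongation factors, 4 were called higher and 3 lower between shM3 and B5, 6 and 3 with JQ1 against DMSO, 4 and 3 with Molib and 3 and 3 with I-BET151. SUPT5H, a subunit of the pausing factor DSIF, was higher in shM3 (log2 difference 0.32 ± 0.08 SE, adjusted p = 0.0173), with JQ1 (log2 difference 0.39 ± 0.12 SE, adjusted p = 0.0412) and with Molib (log2 difference 0.47 ± 0.12 SE, adjusted p = 0.0216). Of 12 phosphatases and assembly factors of the polymerase, 3 were higher and 0 lower in shM3, and 2 and 3 with JQ1. CTDP1, which removes phosphate from the POLR2A tail, was higher in shM3 cells (log2 difference 0.71 ± 0.09 SE, adjusted p = 0.000989). Among 12 tested paralogs and regulators of initiation, 1 was higher and 4 lower in shM3, and DRAP1, a repressor that binds TBP together with DR1, averaged 619.0 ± 83.4 FPKM with JQ1 and 730.8 ± 27.6 with Molib, against 238.1 ± 11.3 with DMSO (SD, n = 2 each, log2 difference 1.37 ± 0.28 SE, adjusted p = 0.00949 for JQ1, log2 difference 1.61 ± 0.28 SE, adjusted p = 0.00472 for Molib). In shM3 DRAP1 was lower than in B5 (log2 difference -0.37 ± 0.10 SE, adjusted p = 0.027).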

How the data were processed

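RNA-seq of 22 MDA-MB-231 libraries was read from 3 tables. The authors deposited FPKM values per gene (named as such for the knockdown table, inferred from the values for the others). The submitters' processing notes name CASAVA 1.4, HISAT2 2.1.0, Cufflinks 2.2.1 and hg38. Their options, annotation and use of strand are nowhere stated in these sources. Read depth is unknown, so no counting interval was made. The CTRL table also holds the authors' deposited log2 fold changes, p-values and mean normalized signal per gene, per the file headers, with no groups named.

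Genes reaching 1 FPKM in 2 or more libraries were tested within their table with limma 3.58.1 (R 4.3.3, variance trend on the mean level) on log2(FPKM + 1), 1 fit per table with all its groups, with Benjamini-Hochberg adjustment over all genes tested. Fits were tested on simulated data. Alternatives were the replicate number as a block, a pseudocount of 0.1, no filter, TMM factors (trims of 30% and 5%), equal medians and leaving out each library. Members with an adjusted p under 0.05 and groups that do not overlap were named by smallest adjusted p, up to 24 in a main comparison and 8 in the others. POLR2A, POLR2B, TBP, GTF2B, TAF1, the kinases with their cyclins, MNAT1, ERCC2, ERCC3, MED1, MED12, MED13 and MED14 were set to be described whatever their values. This was done in full for shM3 against B5, each add-back against shM3 and each compound against DMSO. In the other comparisons only some of them are given. Members and lists were chosen with earlier results of these data known. Gene overlaps came from GENCODE release 29, and promoters from RefSeq (GRCh38.p14).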

Additional observations from a re-analysis of the deposited data

Results flagged for a closer look

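JQ1 was used in both the DMSO table and the CTRL table, and for 6 members every JQ1 library moved one way from its control in one experiment and every library the opposite way in the other. The difference between the experiments was not tested. Against CTRL limma called none of the 6, and against DMSO only ERCC2. How many of all genes meet the same rule was not counted, so the number is not read as particular to the members. ERCC2 had a log2 difference of -0.98 for JQ1 against CTRL and 0.40 for JQ1 against DMSO. GTF2H5 had -0.65 against CTRL and 1.28 against DMSO. The value against DMSO rests on JQ1 library b, at 24.2 FPKM beside 3.88 in library a, against 3.55 and 3.58 with DMSO. POLR2B had -0.43 against CTRL and 0.31 against DMSO. MED15 had 2.88 against CTRL and -0.27 against DMSO, MED28 had 2.03 and -0.13, and MED4 had 2.99 and -0.17. The JQ1 and CTRL libraries of the CTRL table held 42965 to 50061 and 37435 to 52947 FPKM of RN7SL1, and its part in these differences was not tested.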

How the results depend on the processing

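Of 123 recomputed counts of called members, 86 stayed within 1.5 times the reported count and 37 did not, and among 3176 recomputed values of named members no called value changed direction, 350 no longer passed and 20 newly passed. Among 172 calls named by the rule, 86 held in every alternative run. With 1 library left out the count ran from 13 to 18 for shM3 against B5, 18 to 24 for shM3_WT against shM3, 1 to 2 for shM3_CD against shM3, 7 to 8 for shM3_WT against shM3_CD, 12 to 18 for shM3_WT against B5 and 9 to 14 for shM3_CD against B5. It ran from 12 to 16 for JQ1 and for Molib against DMSO, 6 to 25 for I-BET151 against DMSO, 21 to 37 for I-BET151 against JQ1, 20 to 38 for I-BET151 against Molib, 0 to 1 for Molib against JQ1, 0 to 3 for JQ1 against CTRL and 0 to 9 for MW_JQ1 against JQ1. These fits have fewer libraries, and the lone library of a group is assumed to vary like the other groups. The number of all genes called also moved in most of these fits. The counts are therefore not read as particular to the members. With the replicate number as a block the count was 15 for Molib against DMSO and 9 for I-BET151 against DMSO, and the cause was not tested. Same-numbered libraries did not deviate together (r from -0.12 to 0.04 over genes), so the numbers are not read as pairs. No block could be fitted for JQ1 of the DMSO table, whose columns carry no number. Depth is unknown, so what it limits cannot be given, and 2 libraries a group limit every test.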
